A study of Gallus gallus with 12 samples.

Results

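Genes for chromatin remodelling and histone or DNA modification were followed in the mature Organiser (Hensen's node) of the chick embryo and in the tissue beside it. The genes were every row of the deposited count table whose symbol begins with SMARC, CHD plus a digit, KDM, KMT, SETD, HDAC, EZH, SUZ12, DNMT, ARID or BRD plus a digit, or is EED, a TET gene or an ING gene of the numbered family. The rule used symbols alone. It found 87 rows of the 13106 genes in the table, with 85 distinct symbols, since 2 symbols each had 2 rows. The study set 12 RNA sequencing libraries from 6 Gallus gallus embryos side by side, each giving 1 node library and 1 lateral library. Node libraries came from fluorescently labelled cells that stayed in the Organiser after labelling as gastrulation ended, and lateral libraries came from its ectoderm and mesoderm neighbours. In 3 embryos, fixed in modified methacarn and embedded in paraffin, both tissues were cut out of sections with a laser (laser-capture microdissection, LCM). In the other 3 they were taken by hand from the live embryo. With either method embryo 1 was at 8 somites and embryos 2 and 3 were at 9. No mutant, drug or transgene is named in the labels, and every library was made from nanogram amounts of total RNA.

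Chromatin regulators act in multi-subunit complexes. SWI/SNF, ISWI and CHD enzymes spend ATP to slide or evict nucleosomes, Polycomb repressive complex 2 and the KMT and SETD enzymes add methyl groups to histones, and KDM and HDAC enzymes take methyl and acetyl groups away. DNMT and TET enzymes write and oxidise DNA methylation, and bromodomain and ING proteins read histone marks. In the elongating axis such enzymes are known mostly as broadly expressed regulators of the choice between progenitor state and differentiation.

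The genes were detected more evenly than the table as a whole. Of the 87 rows, 48 (55.2%) had counts in all 12 libraries, against 4909 (37.5%) of all genes. After the filter on low counts 80 of the 87 (92%) were tested, as were 9491 genes in all. By role, the rows numbered 12 for SWI/SNF, 4 for ISWI and other SNF2 proteins, 7 for CHD remodellers, 4 for Polycomb repressive complex 2, 14 for KMT and SETD methyltransferases, 13 for KDM demethylases, 9 for HDAC deacetylases, 6 for DNA methylation, 6 for other bromodomain proteins, 5 for ING readers and 7 for other ARID proteins. The 7 rows not tested were SMARCA4, CHD5, TET3, ARID3A, ARID3C, ARID5A and the SETD6 row ENSGALG00000002247. None of these had more than 40 counts in any library except SMARCA4, a SWI/SNF ATPase, whose highest count was 116, in the lateral library of LCM embryo 3. The SMARCA4 row covers only positions 21 to 4418 of an unplaced scaffold, and the row of DNMT1, the maintenance DNA methyltransferase, covers positions 21 to 10786 of another. DNMT1 had 65 counts at most. Low counts in these rows describe the deposited gene models, and what part of each gene they hold was not tested.

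Total counts per library were 21139477 to 25972879 for LCM and 18568123 to 30997461 for manual dissection. The 87 rows took 0.599% to 0.888% of the counts in LCM libraries and 0.5001% to 0.723% in manual libraries. The number of the 87 at 0 was 7 to 22 in LCM libraries and 1 to 18 in manual libraries, and the libraries of manual embryo 1 had the fewest in the manual group, at 5 (node) and 1 (lateral). Over both methods all 6 known Organiser and notochord genes that were tested had positive node minus lateral fold changes, as did 4 of 6 in LCM embryos alone, where the lowest was -1.17. Their summed level, over 7 rows, was 1130 to 1420 CPM (counts scaled to a common library size) in LCM node libraries against 181 to 967 CPM in LCM lateral libraries, and 496 to 1170 CPM in manual node libraries against 53.5 to 259 CPM in manual lateral libraries. Neural plate markers (FABP7, PAX-7 and SOX2) summed to 313 to 953 CPM in LCM node libraries against 886 to 2330 CPM in lateral ones. In manual embryos they summed to 263 to 1680 CPM in node libraries against 250 to 3160 CPM in lateral ones. The 3 did not run alike. Over both methods FABP7 and PAX-7 gave -1.23 ± 0.27 and -8.57 ± 2.54, while SOX2 was positive at 1.40, none of them called. Endoderm markers (5 rows) summed to 307 to 472 CPM against 560 to 1020 CPM in LCM embryos and to 208 to 357 CPM against 596 to 1210 CPM in manual embryos, again node against lateral. Gene by gene the endoderm markers ran otherwise, since 3 of the 4 tested had positive node minus lateral fold changes over both methods (median 2.07) and CLDN1 was the exception at -1.29 ± 0.32, none of them called. Presomitic mesoderm markers were positive in 4 of 4 tested over both methods, with a median of 1.30. In LCM embryos alone 4 of 4 were positive, with a median of 2.83 and 2 at an unadjusted edgeR p below 0.05. In manual embryos alone 2 of 4 were positive, with a median of -0.06 and 0 at an unadjusted edgeR p below 0.05. None was called in any of these comparisons. The part of such cells in the node minus lateral values below was not tested. The LCM node library of embryo 2 held reads that match the manual lateral library of embryo 1, at 8.76% of its total by 104 genes that mark them. Of the 79 rows with counts in that library, 18 had no more than the carried reads would give, among them EZH1, SUZ12, CHD9, TET2 and HDAC9. Subtracting those reads also moved the TMM scaling factor of that library from 0.761 to 1.307. The effect of the subtraction is given beside the counts and medians that it moved most. Single fold changes are from the counts as deposited unless stated.

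A few genes carried much of the signal. HDAC1, HDAC2, SMARCE1 and KDM5B together held 32.4% to 43.9% of the 87 rows' counts in LCM libraries and 46.7% to 64.8% in manual libraries. Counts were not divided by transcript length, so they do not rank these genes by transcript number.

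**Figure D1:**
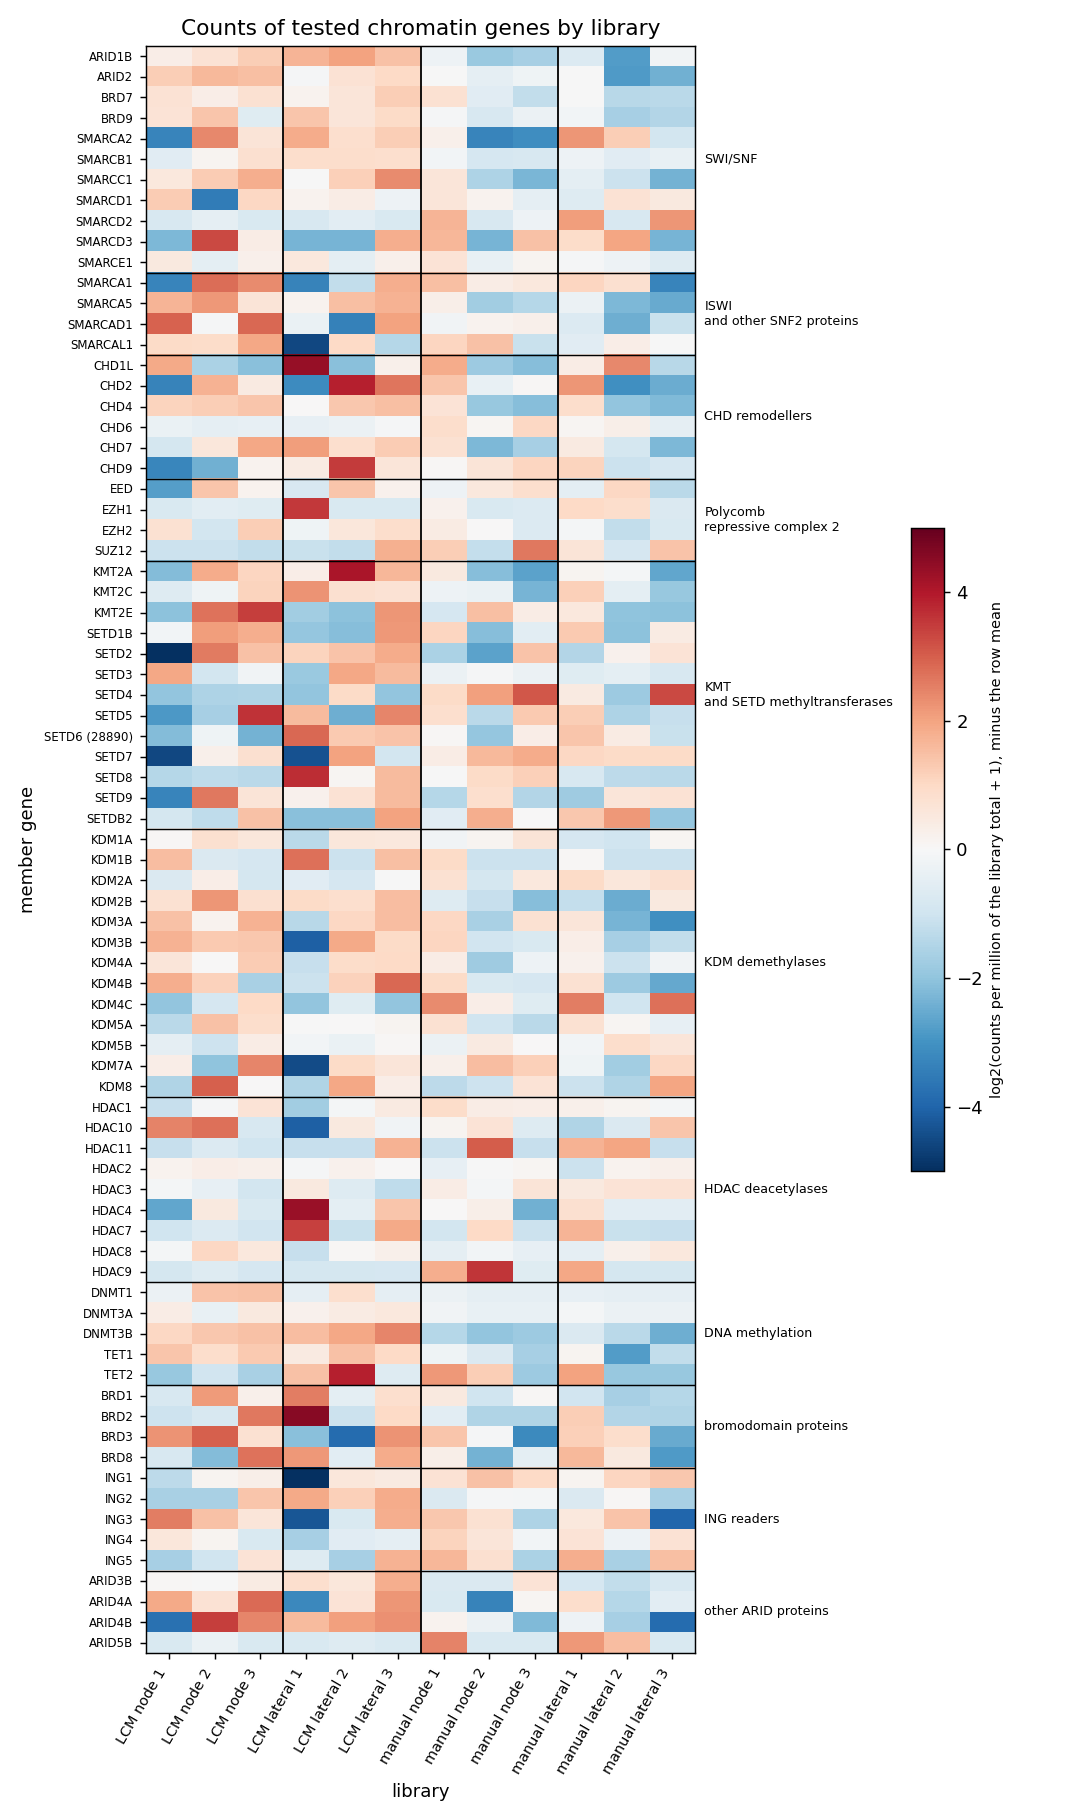
Level of the tested genes that are reported (rows, by role) in each of the 12 libraries (columns), as log2 of CPM + 1 minus the gene's mean over libraries. Gaps in single libraries are frequent, and genes counted in all 12 libraries show the flatter rows.

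Whether the node differs from its neighbours in its chromatin machinery was asked first over all 6 embryos, with the embryo as a block. The quasi-likelihood test of edgeR gave no gene of the table an adjusted p below 0.05, so percent called was 0 and none of the 80 tested genes was called. At an unadjusted p below 0.05 there were 3 of 80 (3.75%), all higher in the node, ARID2, KDM1A and HDAC1, where 3.41% of all genes tested passed (2.68% higher and 0.738% lower). That share is near the background. The median node minus lateral log2 fold change was 0.06 over the 80, with 42 positive (52.5%), and 0.17 over all genes tested, with 57.8% positive. With DESeq2 size factors the median of the 80 was -0.02, and with the carried reads subtracted it was -0.10, with 35 positive, where that of all genes was -0.06. DESeq2 called 2.55% of all genes and 0 of the 80, and limma voom called 0 genes.

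ARID2, the ARID subunit of the PBAF form of SWI/SNF (chromosome 1, 30694896 to 30801451, in the coordinates of the deposited table, which names no build), had 4398, 5402 and 5209 counts in the node libraries of LCM embryos 1 to 3 against 1586, 3138 and 4072 in their lateral libraries. In manual embryos 1 to 3 it had 2066, 1127 and 1253 counts in the node against 2369, 235 and 316 laterally. The node was higher in 5 of 6 embryos and level in manual embryo 1, where the log2 CPM difference was -0.02. The fitted log2 fold change was 1.27 ± 0.45 (SE), with an unadjusted p of 0.0141 and an adjusted p of 0.999 by edgeR.

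KDM1A, the LSD1 demethylase that removes methyl groups from histone H3 in corepressor complexes (chromosome 23, 1686690 to 1716555), had 6782, 10399 and 9589 counts in LCM node libraries against 2258, 9813 and 10265 in LCM lateral libraries. Manual node libraries held 6471, 5937 and 8055 of its reads against 4679, 3177 and 6533 in manual lateral libraries. After scaling for library size the node was higher in all 6 embryos, by 0.16 to 1.20 log2 CPM. The raw counts of LCM embryo 3 ran the other way, with the lateral library holding more reads in all. The fitted log2 fold change was 0.70 ± 0.25 (edgeR adjusted p = 0.999).

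HDAC1, a class I deacetylase found in the NuRD, SIN3 and CoREST complexes (chromosome 23, 5075963 to 5089294), had 8884, 17409 and 30890 counts in LCM node libraries against 5192, 18735 and 29113 in LCM lateral libraries. In manual embryos it had 41592, 21097 and 19348 counts in the node against 30026, 21050 and 17412 beside it. Scaled differences were small and even, 0.07 to 0.65 log2 CPM in favour of the node, with an SD of 0.20 over the 6 embryos. The fitted log2 fold change was 0.39 ± 0.17 (edgeR adjusted p = 0.999). HDAC2, its paralogue in the same complexes, gave 0.16 ± 0.21 and was higher in the node in 4 of 6 embryos.

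SMARCAD1, an SNF2 helicase that keeps heterochromatin through DNA replication (chromosome 4, 36577079 to 36618033), had 1863, 199 and 1732 counts in LCM node libraries against 153, 0 and 1045 in LCM lateral libraries, and 216, 212 and 210 in manual node libraries against 167, 21 and 85 in manual lateral libraries. Node and lateral counts overlapped across embryos, but within each embryo the node was higher. The fold change was 2.57 ± 1.36 (edgeR adjusted p = 0.999).

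KDM1A, HDAC1 and SMARCAD1 were the 3 of 80 (3.75%) that were higher in the node in all 6 embryos, where 2.36% of all genes tested were, and 0 of 80 were lower in all 6, against 1.02% of all genes. For each of the 3 the exact two-sided sign-flip test over embryos gave p = 0.0312, unadjusted for the genes examined. That is the smallest p that 6 pairs allow. Any gene of 1 direction in all 6 embryos must give it, so it adds no support. For ARID2 the sign-flip test gave 0.0625. As deposited, LCM embryo 2 had a median node minus lateral difference of 0.896 log2 CPM over all genes tested, with 66.4% higher. With the carried reads taken out of its node library and scaling redone, 1 of 80 was higher in all 6 embryos, SMARCAD1 (181 of all genes). The difference in LCM embryo 2 became -0.02 for KDM1A and -0.33 for HDAC1. Carried reads were 2.8% and 10.7% of their counts in that library, and the new scaling moved the values as well. With libraries scaled by their totals alone the difference in LCM embryo 2 stayed positive, at 0.23 for KDM1A and 0.04 for HDAC1. ARID2 then joined the 3, making 4 (280 of all genes).

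**Figure D2:**
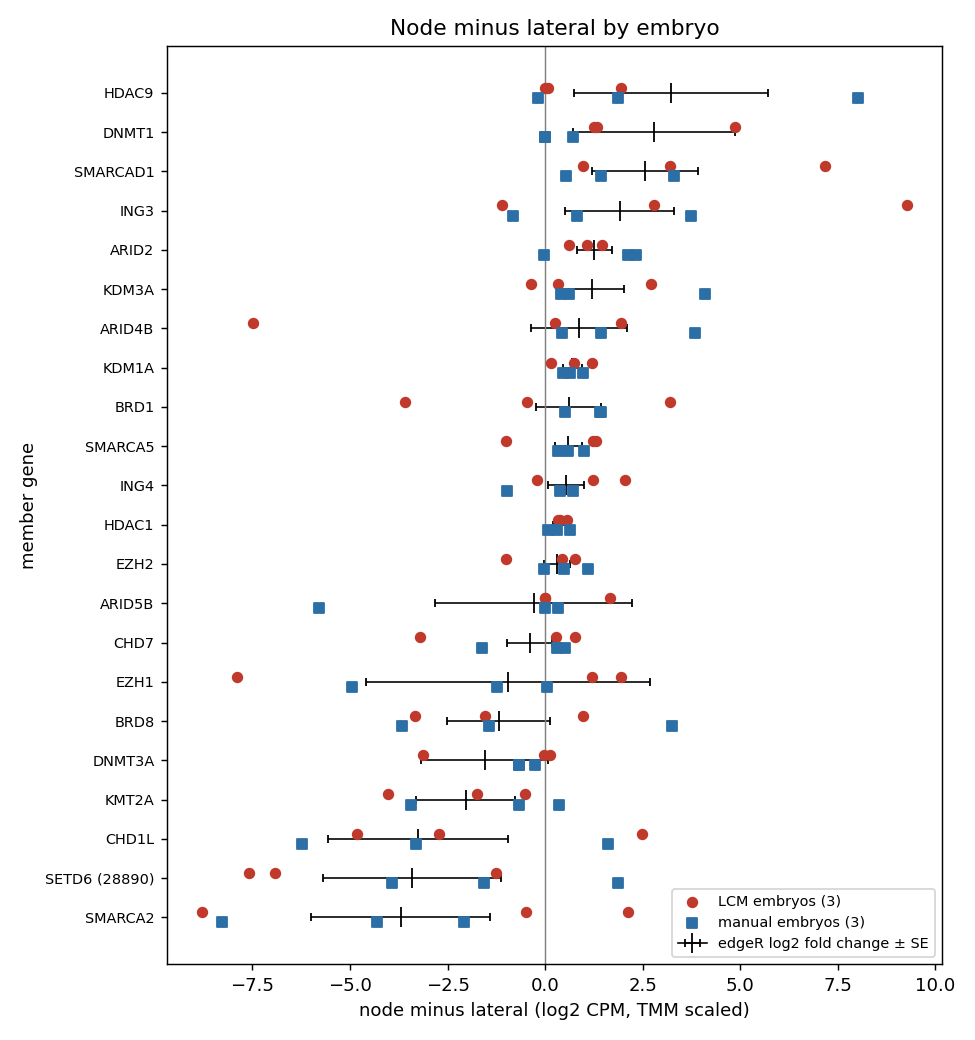
Node minus lateral difference in log2 CPM (horizontal axis) for the genes named for this comparison, with a point for each of the 6 embryos, LCM as circles and manual as squares, and the edgeR log2 fold change with its SE as a black cross and bar. HDAC1 and KDM1A have all 6 points close together and above 0, between 0.07 and 1.20, while low-count genes such as HDAC9 and ARID5B spread over many log2 units.

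The other genes with the smallest p in each role did not separate the tissues. Among SWI/SNF genes, SMARCA2, the alternative ATPase of the complex, had a log2 fold change of -3.70 ± 2.29. Its counts were 0, 1128 and 341 in LCM node libraries against 731, 408 and 573 in LCM lateral libraries, and 290, 0 and 3 in manual node libraries against 1384, 516 and 97 in manual lateral libraries, so that LCM embryo 2 was the exception among 6. Of the 11 SWI/SNF genes tested, 6 had positive fold changes, and the core subunits SMARCE1 and SMARCB1 gave 0.23 ± 0.20 and -0.47 ± 0.56. All 4 ISWI and other SNF2 genes had positive fold changes, of 0.60 to 2.57, with SMARCA5, the main ISWI ATPase, at 0.60 ± 0.35. Of 6 CHD remodellers 2 were positive. CHD1L, a remodeller recruited by poly(ADP-ribose), gave -3.25 ± 2.30 and CHD7, which binds enhancers, gave -0.39 ± 0.58.

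For Polycomb repressive complex 2, EZH2, its main catalytic subunit, gave 0.31 ± 0.34, and EZH1, the alternative one, -0.96 ± 3.64. Among 13 KMT and SETD genes 5 were positive. KMT2A, a histone H3 methyltransferase that maintains HOX expression, gave -2.04 ± 1.27 and was lower in the node in 5 of 6 embryos, and the SETD6 row ENSGALG00000028890 gave -3.41 ± 2.29. Among 13 KDM genes 9 were positive, and KDM3A, which removes methyl groups from histone H3, gave 1.20 ± 0.81. HDAC genes split 5 to 4, with HDAC9, a class IIa deacetylase, at 3.23 ± 2.49.

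DNMT1 and DNMT3A gave 2.79 ± 2.07 and -1.55 ± 1.62, both from at most 65 counts in any library. The bromodomain proteins BRD8, a subunit of an acetyltransferase complex, and BRD1, a scaffold of another, gave -1.19 ± 1.33 and 0.60 ± 0.83. ING3 and ING4, also subunits of acetyltransferase complexes, gave 1.91 ± 1.40 and 0.54 ± 0.45, and ARID4B and ARID5B gave 0.87 ± 1.23 and -0.29 ± 2.52. The edgeR adjusted p was 0.999 for each of these genes.

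How far a difference could be seen depended on level. The SD of the node minus lateral difference over the 6 embryos had a median of 3.15 log2 CPM in the 38 genes with an average log2 CPM below 3, 2.64 in the 17 from 3 to 5, 1.12 in the 15 from 5 to 7 and 0.43 in the 10 at 7 and above. Medians over all genes in the same bands were 3.21, 2.55, 1.15 and 0.56. HDAC1 had the smallest SD of the top band, 0.20. In the 35 genes with an average log2 CPM of at least 5, 26 had positive node minus lateral fold changes, with a median of 0.31, against 58.9% positive and a median of 0.11 over the 3410 such genes of the table. With the carried reads subtracted 24 of the 35 were positive, with a median of 0.18, against 45.2% and -0.06 over all such genes.

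**Figure D3:**
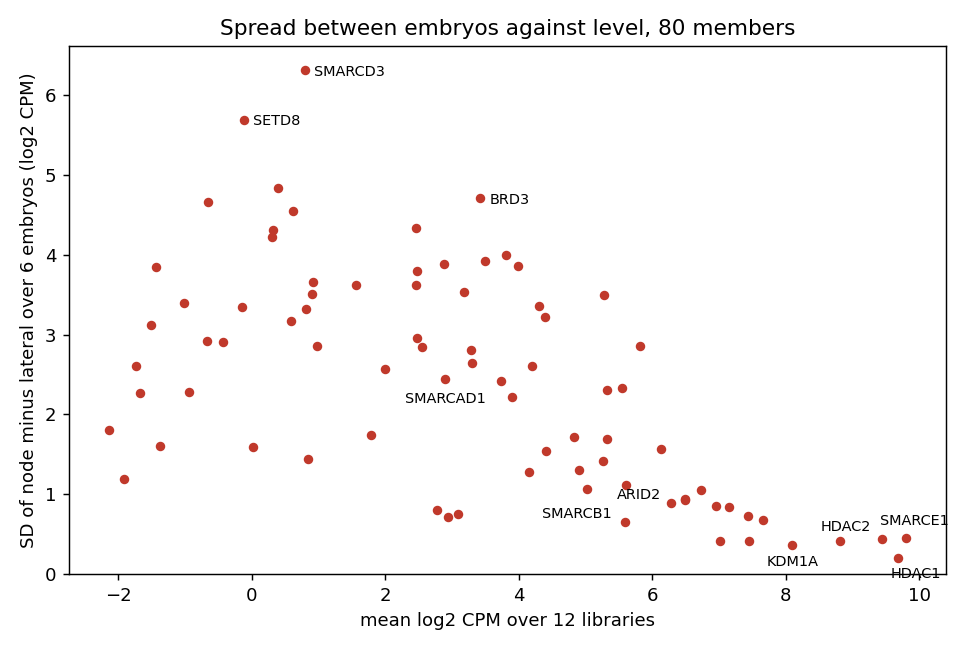
SD over 6 embryos of the node minus lateral difference in log2 CPM (vertical axis) against mean log2 CPM over the 12 libraries (horizontal axis), with a point for each of the 80 tested genes. Spread shrinks with level, and HDAC1, HDAC2, SMARCE1 and KDM1A lie at the low right end.

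The same contrast was then taken within each method. In LCM embryos edgeR called 2 genes of the table (0.0211%) and 0 of the 80, and at an unadjusted p below 0.05 there were 0 of 80 where 5.22% of all genes passed. The median of the 80 was 0.09, with 44 positive, against 0.36 over all genes, and with the carried reads subtracted it was -0.51, with 32 positive, against -0.09. DESeq2 called 9.16% of all genes and 8 of the 80, BRD3, SMARCAD1 and SMARCAL1 higher in the node and SETD8, CHD9, TET2, ING2 and the SETD6 row ENSGALG00000028890 lower. In edgeR these had log2 fold changes of 4.59 ± 2.75 (BRD3), 3.77 ± 2.23 (SMARCAD1), 3.82 ± 1.85 (SMARCAL1), -7.23 ± 3.48 (SETD8), -5.55 ± 2.69 (CHD9), -5.56 ± 3.07 (TET2), -7.54 ± 4.97 (ING2) and -7.22 ± 3.79 (SETD6), with adjusted p values of 0.906 to 0.908. BRD3 is a BET reader of acetylated histones, SMARCAL1 an annealing helicase of stalled replication forks, and TET2 a methylcytosine oxidase. For BRD3 the LCM node libraries held 1645, 2532 and 562 reads against 53, 1 and 1791 in the lateral ones, so the direction was not shared by LCM embryo 3. With the carried reads subtracted DESeq2 called 852 genes of the table and again 8 of the 80, with SMARCAD1 no longer among them and SETD5 added.

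Elsewhere in LCM embryos, the remodelling genes ARID2, ARID1B and CHD2 gave 1.05 ± 0.64, -0.84 ± 0.93 and -2.38 ± 1.49, and the Polycomb genes EZH1 and EED gave 2.22 ± 4.15 and -0.59 ± 1.32. KDM1A and KDM3B gave 0.70 ± 0.38 and 1.66 ± 1.21. HDAC1 and HDAC8 gave 0.43 ± 0.26 and 0.91 ± 0.61. The remaining named genes were DNMT1 at 4.45 ± 3.66, BRD8 at -1.36 ± 1.86, ING4 at 1.03 ± 0.65, ARID4A at 2.09 ± 1.97 and ARID3B at -1.07 ± 2.36, none called.

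In manual embryos edgeR called 0 genes and 0 of the 80, and 1 of 80 had an unadjusted p below 0.05 (ARID2, 1.51 ± 0.69, adjusted p = 1), where 0.98% of all genes did. DESeq2 called 0.432% of all genes and 0 of the 80. KDM1A and HDAC1 gave 0.69 ± 0.37 and 0.34 ± 0.26, close to their LCM values as deposited. With the carried reads subtracted LCM embryo 2 was at -0.02 for KDM1A and -0.33 for HDAC1, below the other LCM embryos. KDM5B, a histone H3 demethylase of active promoters, gave -0.48 ± 0.32 and was lower in the node in all 3 manual embryos, with 9980, 12300 and 8574 counts in the node against 12712, 19263 and 15392 laterally. SMARCA2, SMARCA5 and SMARCAD1 gave -5.18 ± 2.84, 0.64 ± 0.51 and 1.77 ± 1.83. CHD2, CHD1L, EZH2 and EZH1 gave 2.66 ± 1.82, -4.44 ± 3.56, 0.52 ± 0.49 and -2.32 ± 3.83. No remodelling or Polycomb gene was called in these embryos. SETD8 and KMT2E gave 4.58 ± 3.12 and 6.10 ± 4.94, and HDAC9 5.21 ± 4.70. TET2, DNMT3A and BRD1 gave 3.94 ± 3.59, -1.83 ± 2.64 and 1.13 ± 1.03. ING3, ING2, ARID4B and ARID4A gave 1.18 ± 1.79, 1.35 ± 3.36, 1.94 ± 1.62 and -1.78 ± 1.89.

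The difference of the node effect between the methods was tested directly. No gene was called by edgeR, and 1 of 80 had an unadjusted p below 0.05, where 2.59% of all genes did. That gene was SETD8, which monomethylates histone H4 and is needed in the cell cycle (chromosome 15, 4986361 to 4990790). It had 0, 2 and 1 counts in LCM node libraries against 703, 45 and 183 in LCM lateral libraries, and 43, 82 and 93 in manual node libraries against 16, 2 and 1 in manual lateral libraries. The node was thus below the lateral tissue in all 3 LCM embryos and above it in all 3 manual ones, with a difference of -11.82 ± 4.66 between the effects (edgeR adjusted p = 1). DESeq2 called 2.66% of all genes and 4 of the 80 for this difference, SETD8, CHD9, CHD2 and TET2, all more negative with LCM, and the same 4 with the carried reads subtracted. Since the subtraction lowers counts only in the LCM node library of embryo 2, it moves these 4 further down, and the repeat adds no support.

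Opposite directions in all embryos of the 2 methods were seen for 6 of the 80. SETD8, TET2 and ARID3B were lower in the node in 3 of 3 LCM embryos and higher in 3 of 3 manual embryos (3.75%, against 0.706% of all genes). Another 3 of the 80, HDAC8 and CHD4 among them, were higher in the node in 3 of 3 LCM embryos and lower in 3 of 3 manual embryos (3.75%, against 1.49%). TET2 had 0, 20 and 5 counts in LCM node libraries against 196, 1321 and 36 in LCM lateral libraries, and 421, 156 and 1 in manual node libraries against 435, 0 and 0 in manual lateral libraries. Its scaled difference in manual embryo 1 was only 0.13 log2 CPM, and in manual embryo 3 its direction rests on 1 count. ARID3B was near level in manual embryo 1, with 22 node counts against 20 lateral counts. CHD4, the NuRD ATPase, differed by 0.01 to 0.90 log2 CPM in LCM embryos and by -0.21 to -0.04 in manual embryos, and HDAC8, a class I deacetylase, by 0.36 to 1.498 and by -1.08 to -0.02. For CHD4 the pattern did not hold with the carried reads subtracted, when LCM embryo 2 was at -0.415. With libraries scaled by their totals alone it held for neither gene, as CHD4 was at -0.11 and -0.10 in LCM embryos 2 and 3 and at 0.08 and 0.09 in manual embryos 2 and 3, and HDAC8 was at 0.01 in manual embryo 1. SETD8, TET2 and ARID3B kept their directions in all 6 embryos under both settings. With carried reads subtracted these could not have changed, since only the LCM node library of embryo 2 was lowered, where they were already lower. For these 3 that setting thus adds no support. In all, 5 of the 80 were left with carried reads subtracted, where the shares over all genes were 1.06% (lower with LCM) and 0.896% (higher with LCM). With library totals 4 of the 80 were left, where the shares were 1.07% and 0.927%.

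The other genes named for the difference between methods were not called by edgeR or DESeq2. For remodellers, SMARCA2, BRD9, SMARCAL1 and SMARCAD1 gave 4.12 ± 4.47, -1.01 ± 1.21, 3.33 ± 2.34 and 2.01 ± 2.89. Among enzymes of histone marks, EZH1, EZH2, KDM4A, KDM5A and HDAC7 gave 4.54 ± 5.92, -0.44 ± 0.70, 0.86 ± 0.74, 1.32 ± 1.47 and -6.89 ± 6.88, and the SETD6 row ENSGALG00000028890 gave -5.84 ± 4.56. DNMT1 and BRD3 gave 3.41 ± 6.83 and 5.38 ± 3.19. ING2, ING4, ARID4A and ARID4B gave -8.89 ± 5.92, 0.97 ± 0.91, 3.87 ± 2.73 and -2.52 ± 2.504.

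LCM embryos were set against manual embryos on counts summed over the node and lateral library of each embryo, 3 sums against 3. Of the 80, 61 (76.2%) had positive fold changes, LCM minus manual, with a median of 1.08, against 51.6% of all genes tested and a median of 0.06. At an average log2 CPM of at least 5 the median was 1.01, with 28 of 35 positive, against 0.09 over all such genes. No gene was called by edgeR or voom, while DESeq2 called 7.69% of all genes and 9 of the 80. At an unadjusted edgeR p below 0.05 there were 11 of 80 higher and 1 lower with LCM, 12 in all (15%). Of all genes 13.3% passed (5.54% higher and 7.72% lower). The 1 lower was HDAC9, also among the 9 called by DESeq2. HDAC9 reached the minimum count of the filter in manual libraries alone, so its sign followed from the filter. Method and embryo cannot be told apart here, and in bulk tissue fewer cells of a type and less RNA per cell cannot be told apart either.

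SMARCA5, the ATPase of ISWI complexes (chromosome 4, 30063268 to 30084414), had 266, 527 and 247 CPM in LCM embryos 1 to 3 against 120.5, 34.1 and 34.3 CPM in manual embryos 1 to 3. All LCM values lay above all manual values, and manual embryo 1 was the closest to them. The log2 fold change was 2.46 ± 0.61 (edgeR adjusted p = 0.243, DESeq2 adjusted p = 0.0043). CHD7 had 155.5, 135 and 173 CPM against 105, 29.7 and 18.9 CPM (1.59 ± 0.66), and CHD4 had 269, 503 and 383 CPM against 296, 50.2 and 41.3 CPM (1.58 ± 0.73). In CHD4, the NuRD ATPase, manual embryo 1 lay within the LCM range. Without manual embryo 1, edgeR called 139 genes of the table and 4 of the 80, SMARCA5, CHD4, TET1 and CHD7, with log2 fold changes of 3.26, 3.02, 2.41 and 2.67. That fit leaves 3 sums against 2.

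DNA methylation genes had positive LCM minus manual fold changes in 5 of 5 tested, with a median log2 fold change of 2.87. That median was the value of DNMT3A. Only 2 of the 5, DNMT3B and TET1, had an unadjusted p below 0.05, and none was called by edgeR. DNMT1 and DNMT3A had at most 3 and 6 counts in any manual library, against up to 65 and 23 in LCM libraries. Both reached the minimum count of the filter in LCM libraries alone. Their positive signs thus followed from the filter and add no support. The sums of TET2 and DNMT1 overlapped between the methods. DNMT3B, a de novo DNA methyltransferase of early embryonic cells (chromosome 20, 10595952 to 10609143), had 397, 467 and 547 counts in the node and 522, 777 and 1190 laterally in LCM embryos, against 59, 24 and 27 in the node and 132, 56 and 14 laterally in manual embryos. Every LCM library was above every manual library. The fold change was 3.63 ± 1.09 (edgeR adjusted p = 0.271, DESeq2 adjusted p = 0.000666). TET1, a methylcytosine oxidase of pluripotent cells (chromosome 6, 10248739 to 10305381), had 174, 246 and 161 CPM in LCM embryos against 86.2, 34.7 and 35.8 CPM in manual embryos (1.89 ± 0.51, edgeR adjusted p = 0.271, DESeq2 adjusted p = 0.0121).

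Among SWI/SNF genes 9 of 11 were positive, with a median of 0.94, where 51.6% of all genes tested were positive. SMARCD2, which was negative, had at most 6 counts in any LCM library. It reached the minimum count of the filter in manual libraries alone, so its sign adds no support. ARID2 had 126, 214 and 149 CPM against 73.9, 34.8 and 41.2 CPM (1.71 ± 0.49), and ARID1B, the ARID subunit of the canonical BAF complex, had 69.8, 113 and 68.5 CPM against 22.6, 6.59 and 21.7 CPM (2.30 ± 0.67). BRD9, of the non-canonical BAF complex, gave 1.47 ± 0.57. The sums of the 2 methods did not overlap for any of these 3, whereas SMARCE1, with 1202, 733 and 838 CPM against 1081, 802 and 806 CPM, showed no separation.

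Among the enzymes of histone methylation, KDM2B, which brings a Polycomb complex to CpG islands, gave 2.07 ± 0.63, KDM3B 1.49 ± 0.65, and the KDM group a median of 0.80. KMT2A and SETD3 gave 3.23 ± 1.73 and 1.49 ± 0.78, and the KMT and SETD group a median of 1.11. EZH2 had 214.5, 206.5 and 286 CPM against 186, 133 and 112 CPM (0.71 ± 0.38), and SUZ12, the scaffold of its complex, gave -2.10 ± 2.13 from low counts. Bromodomain proteins were positive in 6 of 6, where 51.6% of all genes tested were, with BRD1 at 1.80 ± 0.60. Among the 6, BRD2 reached the minimum count in too few manual libraries to pass the filter without the LCM ones. Its positive sign adds no support. ARID4B and ARID4A, both subunits of SIN3 deacetylase complexes, gave 3.21 ± 1.04 and 1.92 ± 0.99, and SMARCAD1 2.195 ± 1.04.

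The HDAC and ING groups had the lowest medians, 0.13 and -0.88. HDAC3, the catalytic subunit of the NCoR and SMRT corepressor complexes (chromosome 13, 1277095 to 1290277), had 222, 162 and 74.7 CPM in LCM embryos against 264, 294 and 352.5 CPM in manual embryos, with no overlap (-0.99 ± 0.45, edgeR adjusted p = 0.383). HDAC1 had 296, 906 and 961 CPM against 1194, 1077 and 964 CPM (-0.58 ± 0.43), where LCM embryos 2 and 3 lay close to the lowest manual value. HDAC2 overlapped, with 700, 978 and 608 CPM against 410.5, 822 and 856 CPM (0.13 ± 0.37). ING4 (chromosome 1, 76548297 to 76563040) had 95.1, 109 and 55.7 CPM against 191, 136 and 151 CPM (-0.88 ± 0.44), and ING1, a reader in a deacetylase complex, gave -1.25 ± 0.70. HDAC9 had 0, 4 and 1 counts in the node and 0, 0 and 1 laterally in LCM embryos. In manual embryos it had 146, 412 and 4 counts in the node and 189, 0 and 0 laterally (-6.88 ± 2.58, edgeR adjusted p = 0.319). HDAC9 reached the minimum count of the filter in manual libraries alone. Its negative sign thus followed from the filter and adds no support.

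**Figure D4:**
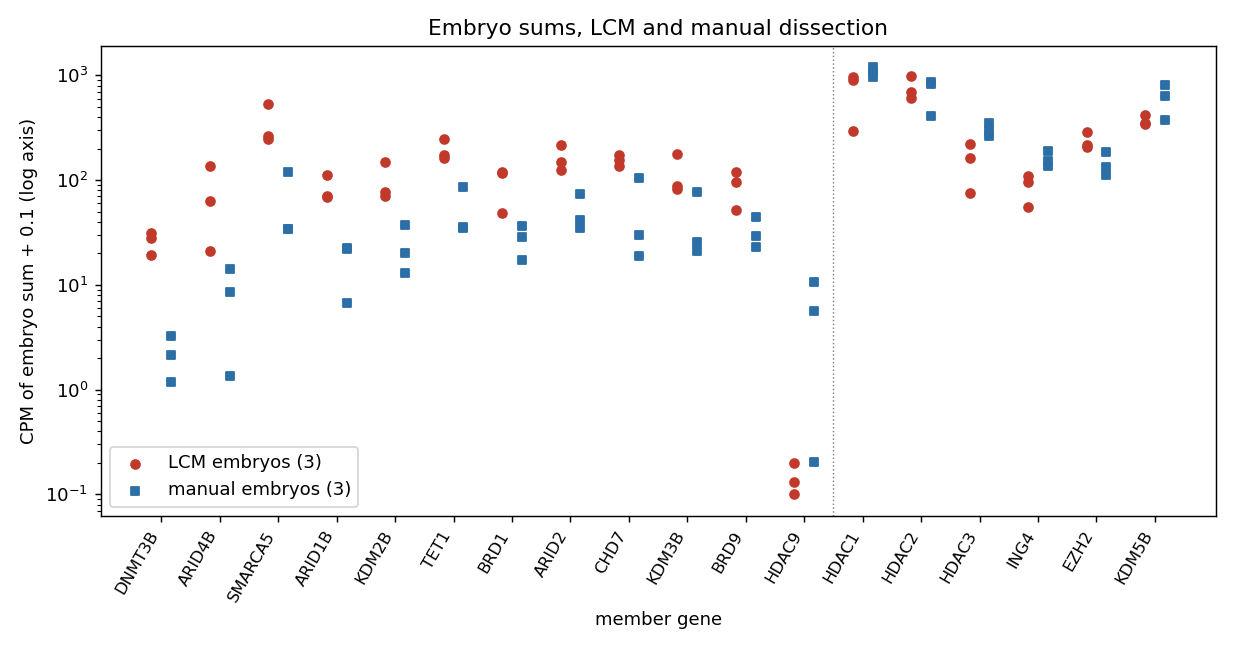
CPM of the summed counts of each embryo on a log axis (0.1 added), LCM and manual, for the 12 genes with an unadjusted p below 0.05 and, after the dotted line, HDAC1, HDAC2, HDAC3, ING4, EZH2 and KDM5B, picked after their values were seen. SMARCA5, TET1 and DNMT3B have all 3 LCM points above all 3 manual points, and HDAC3 has them below.

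Counted over the list, 23 of 80 (28.7%) had the 3 LCM sums above all 3 manual sums, where 11.3% of all genes did, and 8 of 80 (10%) had them below, where 12.6% did. The 8 were HDAC1, HDAC3, HDAC9, ING4, KDM2A, KDM4C, SETD4 and CHD6. DNMT3A, among the 23, reached the minimum count of the filter in LCM libraries alone. HDAC9 and CHD6, among the 8, reached it in manual libraries alone. The directions of DNMT3A, HDAC9 and CHD6 thus followed from the filter and add no support to these counts. KDM2A and SETD4, also among the 8, reached the minimum in too few LCM libraries to pass the filter without the manual ones. They add no support either. With carried reads subtracted 20 of the 80 lay above and 9 below. Over all genes tested the numbers moved as well, from 1071 above and 1192 below to 952 above and 1430 below. For 3 against 3 embryos the smallest exact two-sided p is 0.1. Tested by tissue, 55 of the 80 were positive between LCM and manual node libraries and 49 between lateral libraries, and 42 were positive in both. The share of all genes with positive values was not counted by tissue. Medians of the 80 were 0.85 (node) and 1.10 (lateral), against 0.06 and -0.19 over all genes. At an unadjusted edgeR p below 0.05 there were 7 of 80 in either tissue, where 889 of 9487 (node) and 1095 of 9488 genes (lateral) passed.

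**Figure D5:**
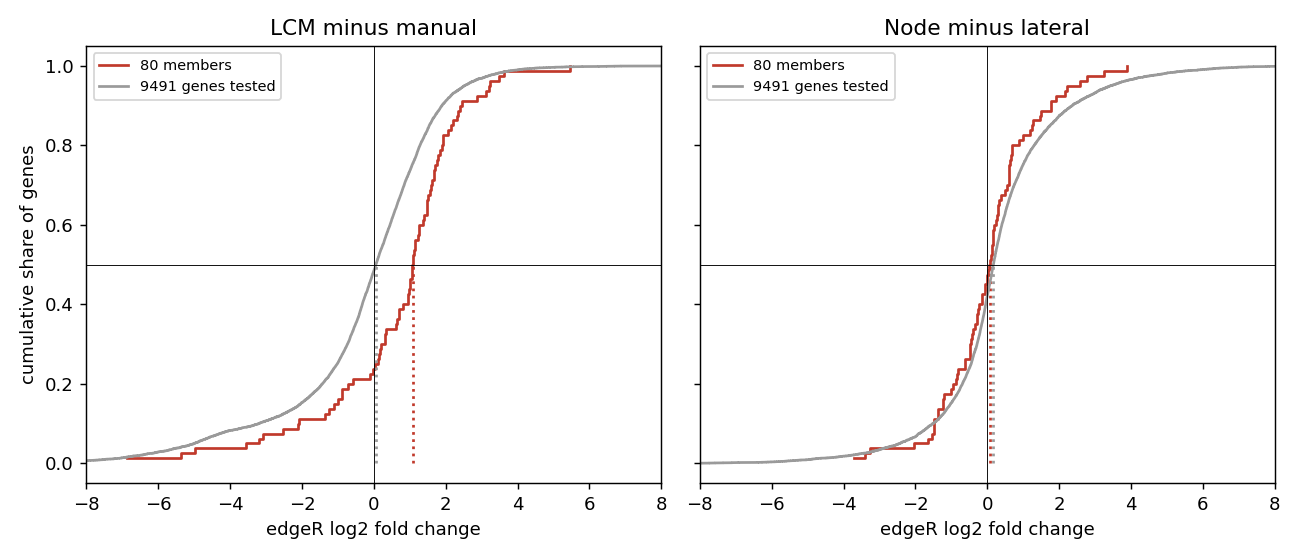
Cumulative share of genes (vertical axis) by edgeR log2 fold change (horizontal axis) for the 80 chromatin genes (red, named members in the legend) and for all 9491 genes tested (grey), LCM minus manual (left) and node minus lateral (right), with dotted lines at the medians. On the left the median of the 80 lies at 1.08 and that of all genes at 0.06, and on the right at 0.06 and 0.17.

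Other chromatin genes, outside the symbol rule, were listed by complex: Polycomb repressive complex 1 and partners of complex 2, acetyltransferases, other methyltransferases and demethylases, NuRD and SWI/SNF partners, INO80 and other remodellers, and histone chaperones. Of 123 rows 104 were tested. For node minus lateral 64 (61.5%) were positive, with a median of 0.11, against 57.8% and 0.17 over all genes tested, and 0 were called. At an unadjusted edgeR p below 0.05 there was 1 (0.962%), SMYD2, a lysine methyltransferase (1.11 ± 0.50), where 3.41% of all genes passed. For LCM minus manual 66 (63.5%) were positive, with a median of 0.74, against 51.6% and 0.06 over all genes tested, and 0 were called. At an unadjusted edgeR p below 0.05, 23 were higher and 5 lower (26.9%), where 13.3% of all genes passed (5.54% higher and 7.72% lower). Those higher included ATRX, the alpha-thalassaemia remodeller, at 3.09 ± 0.57, the SWI/SNF partners SS18 and PBRM1 at 2.19 ± 0.49 and 2.14 ± 0.63, WDR5, a core subunit of KMT2 complexes, at 2.06 ± 0.48, and JARID2, a partner of Polycomb repressive complex 2, at 2.01 ± 0.55. The SWI/SNF partners as a list ran otherwise, with 3 of 8 positive and a median of -0.78. Of the 5 lower genes, 2 were acetyltransferases. The SWI/SNF partners, the DNA methylation readers and partners, and the histone chaperones held 1 each. CHAF1B, a histone chaperone of replication, gave -1.68 ± 0.55.

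Proliferation markers had positive LCM minus manual fold changes in 10 of 13 (76.9%), against 51.6% of all genes tested. At an unadjusted edgeR p below 0.05, 4 of the 13 were higher (30.8%), where 5.54% of all genes were, and none was called. The summed level of the 13 markers was 2500 to 3920 CPM in LCM libraries and 1730 to 3200 CPM in manual libraries. Their median log2 fold change was 0.88, against -0.13 for node minus lateral. MKI67 gave 4.89 ± 0.99 for LCM minus manual. Endoderm markers had negative fold changes in 3 of 4 tested, with a median of -4.79, and APOB, a lipoprotein gene, and TTR, a thyroid hormone carrier, gave -6.08 ± 2.36 and -4.99 ± 1.98, none called. The part of either marker list in the chromatin genes' levels was not tested.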

How the data were processed

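Total RNA of a few nanograms per library was extracted with miRNeasy columns and amplified with the SMARTer low RNA kit, per the labels' protocols. The submitters' processing notes name Bowtie2 2.2.3. Sources used here do not state the counter, genome build, annotation or strand setting, and reads of paralogues and of overlapping or antisense genes may be split or shared. The authors deposited whole-number read counts per gene for 12 libraries, which were used as deposited. Their normalized table was not used here.

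Groups came from the labels. The node and lateral libraries of an embryo were paired by the embryo the labels give. Deviations from group means correlated between paired libraries at 0.07, 0.03 and 0.067 in LCM embryos 1 to 3 and at 0.473, 0.116 and 0.215 in manual embryos 1 to 3, in each case above the highest correlation with another embryo of the method.

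Genes were kept with filterByExpr (minimum count 10, minimum total 15) over the 4 groups and tested by quasi-likelihood in edgeR 4.0.16 (R 4.3.3) with TMM scaling and the embryo as a block, Benjamini-Hochberg adjustment over all genes tested, and calls at an adjusted p below 0.05. LCM minus manual was tested on the sum of each embryo's libraries. Errors are standard errors unless named SD. Log2 CPM used a prior count of 2. DESeq2 1.42.0, limma 3.58.1 voom, other scalings, no filter, each embryo left out and subtraction of carried reads were alternatives, and scaling by library totals and DESeq2 with carried reads subtracted were chosen after seeing the data. The common coefficient of variation was 122% for node minus lateral and 116% for LCM minus manual. The fits were also run on simulated data, at a spread far below that of these data and at a wider one. Recovery of set changes was required only at the lower spread. Recovery at the wider spread is not reported here. The required check therefore does not show what the fits recover at the spread seen here.

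The genes and lists were chosen with earlier results of these data known. Named genes are those called, those with an unadjusted p below 0.05, those of 1 direction in 6 of 6 embryos with an average log2 CPM of at least 3, and the 2 of each role with the smallest p. HDAC2, SMARCE1 and SMARCB1, and CHD4 and the genes of opposite direction in the methods, were named after their values were seen. No sequence of these genes was used here, and 1 gene of the rule is not reported by name.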

Additional observations from a re-analysis of the deposited data

Results flagged for a closer look

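In 5 of the 22 genes named for node minus lateral over both methods, a single embryo stood far from the other 5 in log2 CPM difference. Chance passes the cutoff used in about 1 of 20 groups of normally distributed values. HDAC9, ARID5B, DNMT1 and DNMT3A had 5, 7, 6 and 3 of the 12 libraries at 0, so that rate does not hold for them. HDAC9 had 8.02 in manual embryo 2, where the others lay between -0.19 and 1.95, and ARID5B had -5.81 in the same embryo, where the others lay between 0 and 1.66. DNMT1 had 4.86 in LCM embryo 3 (others 0 to 1.33), DNMT3A had -3.12 in LCM embryo 2 (others -0.68 to 0.14), and ARID4B had -7.49 in LCM embryo 1 (others 0.24 to 3.84). In HDAC9 and ARID5B the value rests on 412 node counts against 0 lateral counts and on 0 node counts against 92 lateral counts.

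The node effect ran in opposite directions in all LCM and all manual embryos for the genes given here, with the counts as deposited and TMM scaling. For TET2 the direction in manual embryo 3 rests on 1 node count against 0 lateral counts. The LCM minus manual difference of the effects was -11.82 for SETD8, -9.50 for TET2, -2.42 for ARID3B, 1.47 for HDAC8 and 0.56 for CHD4. Every edgeR adjusted p of these differences was 1, and DESeq2 called SETD8 (adjusted p = 0.001) and TET2 (adjusted p = 0.045). SETD8, TET2 and ARID3B kept their directions with carried reads subtracted and with library totals, CHD4 under neither, and HDAC8 only with carried reads subtracted. For SETD8, TET2 and ARID3B the subtraction could only lower the node value of LCM embryo 2 further, so it adds no support.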

How the results depend on the processing

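Of 1510 values of named genes under the alternatives, 1453 kept their direction and their side of the threshold, 36 passed it only under the alternative and 21 reversed. The number of genes called changed most with the test. DESeq2's Wald test called 242 genes for node minus lateral over both methods, 869 in LCM embryos, 41 in manual embryos, 252 for the difference between methods and 730 for LCM minus manual, with 0, 8, 0, 4 and 9 of the 80 chromatin genes, while voom called 0 in each. With no filter on low counts the calls were 36, 33, 7, 5 and 19, with none of the 80. DESeq2 size factors gave 1 call for LCM minus manual. DESeq2's test with carried reads subtracted called 852 genes in LCM embryos and 297 for the difference between methods, with 8 and 4 of the 80. In LCM embryos, carried reads subtracted gave 0 calls and library totals 1. Leaving out an embryo gave 0 to 2 calls over both methods, 0 to 3 in LCM embryos, 0 to 1 in manual embryos and 0 to 139 for LCM minus manual, the last with 0 to 4 of the 80 and its highest value without manual embryo 1. Without the replicate block there were 0 calls over both methods, 1 in LCM embryos and 0 in manual embryos. Of the 80, 3 ran in 1 direction in 6 of 6 embryos, and 1 with carried reads subtracted, where 181 of all genes were higher and 178 lower. The median of the 80 for LCM minus manual stayed between 0.81 and 1.42 under every alternative run.

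Reversals were all of values that were not called, and the cause was not tested. Over both methods, with an embryo left out, EZH1 ran from -2.42 to 0.37, ARID5B from -1.58 to 0.71 and CHD7 from -0.766 to 0.079. In LCM embryos, EZH1 became -0.53 with voom, -1.21 with carried reads subtracted (-0.18 by DESeq2), -5.79 without the replicate block and -3.71 to 5.01 with an embryo left out, and EED 0.061 with voom, 0.21 without the block and -1.25 to 0.29 with an embryo left out. In manual embryos, ING2 ran from -0.13 to 3.26 with an embryo left out, and CHD2 became -0.15 and ING3 -0.013 without the block. For the difference between methods, with an embryo left out, SMARCA2 ran from -0.18 to 6.15, EZH1 from -1.37 to 7.33 and EZH2 from -0.931 to 0.088, and EZH1 became -3.51 without the block.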

Other observations

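The log2 ratio of HDAC1 to HDAC2 counts, which needs no library scaling, was -1.09, -0.16 and 0.68 in LCM node libraries 1 to 3 against -1.46, -0.07 and 0.64 in their lateral libraries. In manual embryos it was 1.55, 0.63 and 0.48 in the node against 1.53, 0.18 and -0.11 laterally. The ratio was higher in the node in 5 of 6 embryos, with LCM embryo 2 the exception. LCM embryo 1 had the lowest ratios and manual embryo 1 the highest, in both tissues.

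The genomic span of a gene and its LCM minus manual log2 fold change had a Spearman rho of 0.152 across the 80 chromatin genes and -0.027 across all 9491 genes tested. The points share the same 12 libraries and are not independent. The median span was 26.04 kb for the 80 and 15.7 kb for all genes tested.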
